A study of Homo sapiens with 2 samples.

Results

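The NF-kB genes described here are 4 subunits of the transcription factor (NFKB1, NFKB2, RELA and RELB) and 6 of its feedback and survival targets (NFKBIA, TNFAIP3, BIRC3, ICAM1, BCL3 and SOD2). They were taken by name from the array annotation, as the probe sets that carried exactly 1 of these symbols, and the brightest probe set by the mean of both arrays stood for its gene. Of the 10 listed genes, 8 were measured in this way, out of 19775 genes on the array with such a probe set. BCL3 had 2 probe sets, both of which also carried another symbol, and BIRC3 had no probe set with its symbol in the annotation used, so neither is analysed here. SOD2 was measured by its single probe set of that symbol alone, and the 4 that carried a second symbol were not used.

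The arrays were of HCT15, a human cell line established from a colorectal adenocarcinoma. The knockout-labelled array held RNA of HCT15 cells given Cas9 with an ARID3B guide RNA, labelled as ARID3B knockout in genotype, and the control array held RNA of HCT15 cells labelled control. Both cultures were grown in RPMI with fetal bovine serum, and no cytokine or other stimulus is named in the labels. The sources used here do not say if the edited cells were cloned. Each group had 1 array, so no difference could be tested or checked in a replicate, and what follows describes these 2 arrays, whose small number limits its precision.

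In resting cells NF-kB dimers are held in the cytoplasm by IkB proteins, of which NFKBIA encodes the best known. Receptors for tumour necrosis factor, interleukin-1 and microbial products activate an IkB kinase that marks IkB for destruction, and the dimers then enter the nucleus. RELA and the product of NFKB1 form the main dimer of this canonical route, and RELB and the product of NFKB2 that of the slower non-canonical route. The factor induces its own brakes, among them NFKBIA and TNFAIP3, a ubiquitin-editing enzyme, as well as the adhesion molecule ICAM1, the mitochondrial superoxide dismutase SOD2 and many chemokines. In colorectal epithelium the pathway is known for its part in inflammation and cell survival.

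The dimers bind a short DNA element, the kappa-B site, and the bases upstream of the starts of several members are shown because they carry these letters. The search covered 250 bases upstream of each RefSeq gene start (assembly GRCh38.p14) on both strands, for the kappa-B decamer consensus and for the shorter motif GGAAATTCC, which can overlap it. The decamer was found in 9.95% of 35093 such windows of all genes and the shorter motif in 0.413%. Of the 9 members with a window, 5 held the decamer (NFKB1, NFKB2, NFKBIA, TNFAIP3 and BIRC3), against 11.8% of 27305 genes, and 3 held the shorter motif (NFKB1, NFKBIA and ICAM1), against 0.502% of genes. RELA, BCL3 and SOD2 had neither in these windows, which says only that these letters are not there. Chemokines are secreted leukocyte attractants that NF-kB is known to induce. Of the 10 chemokine genes listed, 8 had a window, 7 of them held the decamer and 7 held the shorter motif. CXCL16 and CCL2 had no window and were not searched. Members and chemokines were listed as known NF-kB genes, and lists and motifs were chosen with earlier results of these data known. A share above that of all genes is therefore a description and no test. Of the chemokine genes, CXCL1 and CXCL8 are shown beside the members because their transcripts were many-fold lower on the knockout-labelled array. Each sequence runs 5′ to 3′ on the gene's strand and ends at the base before the start, and capitals mark the matches to either motif.
NFKB1, chr4:102501109-102501358, plus strand: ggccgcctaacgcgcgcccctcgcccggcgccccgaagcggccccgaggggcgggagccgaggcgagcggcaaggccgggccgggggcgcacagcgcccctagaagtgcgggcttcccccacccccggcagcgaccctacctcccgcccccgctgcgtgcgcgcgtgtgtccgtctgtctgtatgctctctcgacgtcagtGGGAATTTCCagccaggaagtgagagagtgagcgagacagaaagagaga
NFKB2, chr10:102394328-102394577, plus strand: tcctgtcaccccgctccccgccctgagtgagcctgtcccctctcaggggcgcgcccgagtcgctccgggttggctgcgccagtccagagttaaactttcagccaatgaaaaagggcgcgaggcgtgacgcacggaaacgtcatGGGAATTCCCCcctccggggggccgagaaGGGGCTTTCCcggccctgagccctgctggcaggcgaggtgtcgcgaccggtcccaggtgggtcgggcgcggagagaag
NFKBIA, chr14:35404750-35404999, minus strand: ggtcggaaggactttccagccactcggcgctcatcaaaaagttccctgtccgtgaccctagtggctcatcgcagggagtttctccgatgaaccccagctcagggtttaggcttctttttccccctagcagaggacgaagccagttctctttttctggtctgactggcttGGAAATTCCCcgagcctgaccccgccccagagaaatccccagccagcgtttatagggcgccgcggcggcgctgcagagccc
ICAM1, chr19:10270870-10271119, plus strand: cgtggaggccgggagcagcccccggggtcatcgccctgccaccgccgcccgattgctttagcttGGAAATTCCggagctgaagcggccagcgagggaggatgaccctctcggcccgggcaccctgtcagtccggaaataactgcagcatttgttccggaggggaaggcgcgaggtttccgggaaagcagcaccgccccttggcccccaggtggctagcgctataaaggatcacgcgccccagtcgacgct
CXCL1, chr4:73869143-73869392, plus strand: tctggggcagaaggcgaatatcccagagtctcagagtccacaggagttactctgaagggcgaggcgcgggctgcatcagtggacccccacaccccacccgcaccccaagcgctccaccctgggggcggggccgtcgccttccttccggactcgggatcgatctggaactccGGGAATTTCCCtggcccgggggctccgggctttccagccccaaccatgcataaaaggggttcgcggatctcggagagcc
CXCL8, chr4:73740319-73740568, plus strand: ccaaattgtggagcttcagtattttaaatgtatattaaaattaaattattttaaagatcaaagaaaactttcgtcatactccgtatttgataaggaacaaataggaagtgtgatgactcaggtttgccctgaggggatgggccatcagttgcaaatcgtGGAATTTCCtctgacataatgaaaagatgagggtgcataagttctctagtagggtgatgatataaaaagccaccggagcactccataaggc
In NFKB1 the match lay 49 to 40 bases before the start, and in NFKBIA 81 to 72 bases before it. The ICAM1 match lay farther away, 186 to 178 bases before the start. In CXCL8 it lay 91 to 83 bases before the start, and in CXCL1 the overlapping matches lay between 79 and 69 bases before it. NFKB2 has several starts, and the one shown held a pair of sites, at 107 to 97 and at 78 to 69 bases. A match is a description of the letters and does not show that the factor binds there in these cells.

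ARID3B, the edited gene, was higher on the array labelled knockout. Its only probe set stood at 6.09 on the knockout-labelled array, against 5.12 on the control array, a log2 difference of 0.97. With 64 linear units added to both arrays the difference was 0.42, and both values were under a floor at the 75th percentile. The label is not borne out by the transcript. The guide sequence is not given, and a probe set outside the edited part need not show the edit. This level therefore cannot settle whether the gene was disrupted. Every direction below rests on the labels. All values are RMA-normalised log2 expression values, and each difference is the value on the knockout-labelled array less that on the control array. Genes entered the comparison if their higher value reached 4.59, the median of all probe sets other than the manufacturer's controls (the floor). That held for 12841 genes (64.9%), among them all 8 measured members. The spread given beside a member is the scaled median absolute deviation of the differences of genes of similar intensity, which mixes biological and technical variation. Of 9 colon epithelial markers 8 were above the floor, EPCAM and KRT18 among them, and KRT20 was under it. Of 17 measured markers of leukocytes, fibroblasts and endothelium 11 were under the floor on both arrays, including PTPRC, and the other 6 differed by 0.03 to 0.25 in their brightest probe sets. COL1A1, a fibroblast marker among these 6, had another probe set above the floor that differed by -2.47, and its part in the results was not tested.

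No subunit or target passed 2-fold, but 3 of the measured members differed by more than 1.5-fold upward and 1 downward. ICAM1, RELA and NFKB2 were higher on the knockout-labelled array, NFKB1 was lower in the values as deposited but not after the spike-in scaling given below, and RELB, NFKBIA, TNFAIP3 and SOD2 differed by less than the spread of genes like them. Over all genes above the floor, 4.84% passed 2-fold in either direction, made up of 1.05% at least 2-fold higher and 3.79% at least 2-fold lower, and at 1.5-fold the shares were 5.83% and 10.5%. With 8 genes, a count of 0 at 2-fold is near that background. In bulk RNA fewer cells of a kind and less RNA per cell cannot be told apart, and RMA values show a gene only in relation to the rest of its array. The poly-A spike-ins, which are bacterial RNAs that users of this array type usually mix into a sample, were lower on the knockout-labelled array in all 24 probe sets, so that scaling on them would raise every difference by 1.19. With that scaling NFKB1 would stand at 0.57 and SOD2 at 1.08, and the order of the members would be the same.

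**Figure D1:**
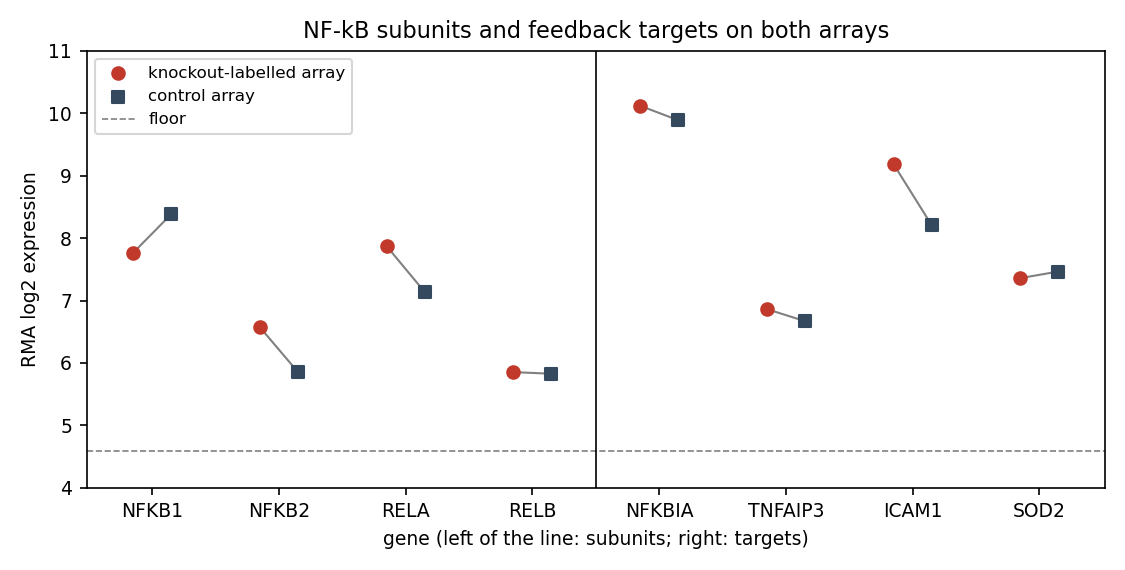
RMA log2 expression of the 8 measured members (y axis) on the knockout-labelled array (circles) and the control array (squares), with the floor of 4.59 as a dashed line. Each symbol is 1 array, so there is no error bar, and levels of different genes are not comparable because each rests on its own probe set. ICAM1, RELA and NFKB2 stand higher on the knockout-labelled array and NFKB1 stands lower, at a difference of -0.62 as deposited and 0.57 after spike-in scaling.

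The subunits differed in direction in the values as deposited, and NFKB1 was the one below 0. RELA, the transactivating subunit of the canonical dimer (chromosome 11), had a value of 7.87 on the knockout-labelled array, against 7.14 on the control array. That is a difference of 0.73, or 1.66-fold higher, against a spread of 0.412. Its second probe set stood at 7.36 on the knockout-labelled array, against 6.79 on the control array, a difference of 0.57. Both RELA probe sets thus stood higher in the knockout-labelled cells, and 3.04% of all genes had a difference above that of the brighter one.

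NFKB2 (chromosome 10) encodes the precursor that non-canonical signalling trims to a DNA-binding subunit. It stood at 6.58 on the knockout-labelled array, against 5.86 on the control array, a difference of 0.72, or 1.64-fold higher, with a spread of 0.395. A second probe set gave 5.55 on the knockout-labelled array, against 5.05 on the control array, a difference of 0.50. The third was under the floor, with the same value of 2.12 on both arrays, and has no weight. When all its probe sets were averaged, this dim one included, the NFKB2 difference was 0.41.

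NFKB1 (chromosome 4), whose product partners RELA in the canonical dimer, went the other way. Its only probe set stood at 7.76 on the knockout-labelled array, against 8.38 on the control array, a difference of -0.62, or 1.53-fold lower, with a spread of 0.388. No other probe set can bear on it. The NFKB2 difference exceeded that of NFKB1 by 1.34 and the RELA difference exceeded it by 1.35, gaps that no scaling by a constant can alter. The paralogous precursors NFKB1 and NFKB2 were thus on opposite sides of 0 in the values as deposited, and on the same side after spike-in scaling.

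RELB (chromosome 19), the partner of processed NFKB2 and itself an NF-kB target, had near equal values, 5.85 on the knockout-labelled array, against 5.83 on the control array. The difference of 0.03 was far under its spread of 0.344, and 94.0% of genes differed by more in size. Its sign turned under 1 of the alternatives, scaling on ribosomal protein genes, at -0.06. Of the non-canonical pair, NFKB2 alone therefore differed by more than its spread.

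Among the targets, ICAM1 stood apart from the feedback inhibitors in size. ICAM1 (chromosome 19) encodes a surface ligand of leukocyte integrins, and its brightest probe set stood at 9.18 on the knockout-labelled array, against 8.21 on the control array. The difference of 0.98, 1.97-fold, was 2.51 times the spread of 0.388, and 1.18% of genes had a higher difference. Its second probe set had 8.70 on the knockout-labelled array, against 7.46 on the control array, a difference of 1.24, and the third 7.16 and 6.38 in the same order, a difference of 0.78. All 3 ICAM1 probe sets were thus higher in the knockout-labelled cells, and the second one alone passed 2-fold. With each array centred on its median, ICAM1 also reached the 2-fold mark.

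The inhibitors NFKBIA and TNFAIP3 differed little. NFKBIA (chromosome 14), the IkB that NF-kB resynthesises after activation, had 10.12 on the knockout-labelled array, against 9.89 on the control array. The difference was 0.23, less than its spread of 0.255, and its other probe set was under the floor on both arrays. TNFAIP3 (chromosome 6), which cuts off signalling from receptor complexes, had 6.86 on the knockout-labelled array, against 6.67 on the control array in one probe set. Its other probe set had 5.80 and 5.51 in the same order, so the differences were 0.19 and 0.29, both under the spread of 0.437. Both genes leaned upward on the knockout-labelled array by amounts that many genes showed: 52.3% of all genes differed by more than NFKBIA in size and 59.2% by more than TNFAIP3.

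SOD2 (chromosome 6), which turns mitochondrial superoxide into hydrogen peroxide and is an NF-kB survival target, had 7.36 on the knockout-labelled array, against 7.46 on the control array. Its difference of -0.11 was under its spread of 0.412. Whether this single probe set reports the coding transcript was not tested.

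**Figure D2:**
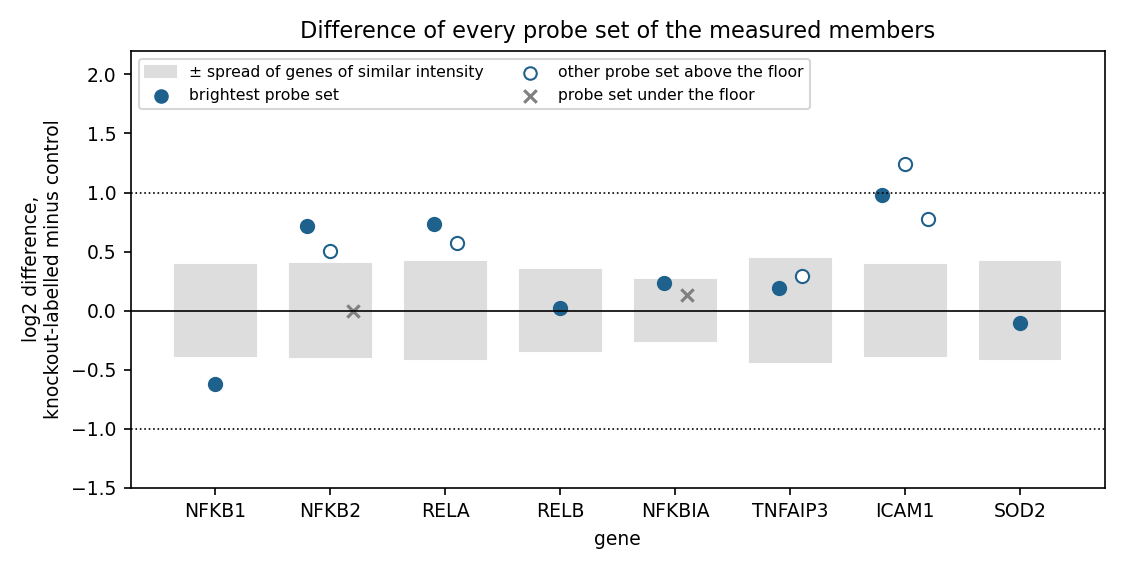
Log2 difference, knockout-labelled minus control (y axis), of every probe set of the 8 measured members (x axis). Filled circles are the brightest probe set of a gene, open circles other probe sets above the floor and crosses those under it, grey boxes reach one spread of similar genes to either side of 0, and dotted lines mark 2-fold. The 3 ICAM1 probe sets, both of RELA and the 2 above the floor of NFKB2 lie above their boxes, and NFKB1 lies below its box in the values as deposited; spike-in scaling would move every point up by 1.19.

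Set side by side, the 4 subunits had a median difference of 0.37, ranging from -0.62 to 0.73, and the 4 measured targets one of 0.21, ranging from -0.11 to 0.98. The median of all genes above the floor was 0.04. Of each 4 members, 3 lay above 0, against 52.9% of all genes. The ranges of subunits and targets overlapped, and the arrays did not separate the regulators from their feedback targets. These medians rest on few genes. The subunit median was 0.06 with a floor at the 75th percentile, which left only NFKB1 and RELA. It was 0.03 once probe sets marked as able to match more than 1 transcript were dropped, which left out RELA. The 4 members that had 2 or more probe sets above the floor had them all on the same side of 0, against 61.1% of 6297 such genes.

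**Figure D3:**
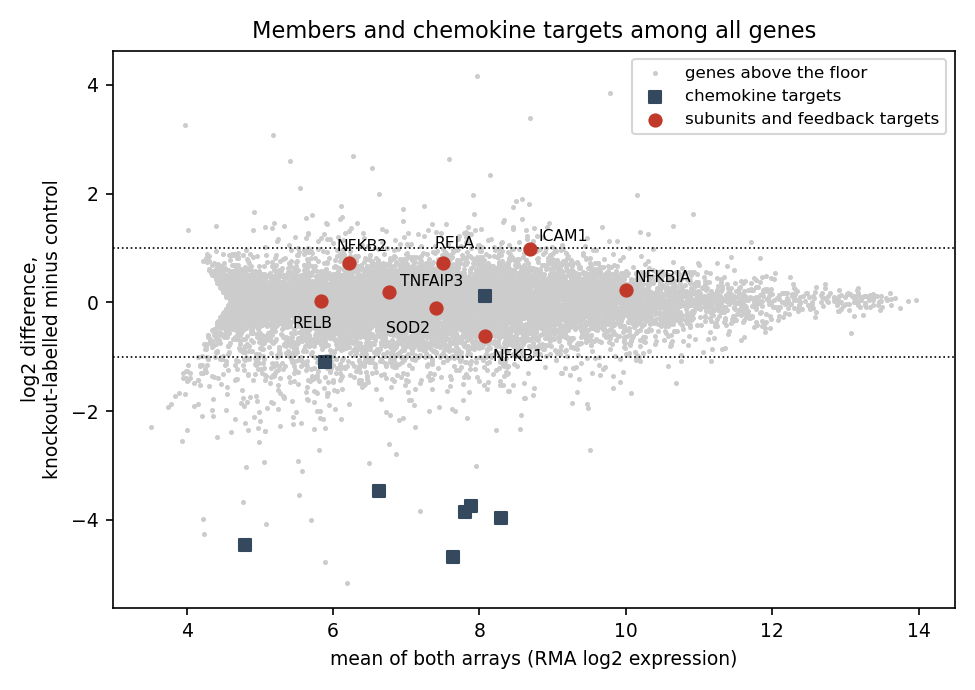
Log2 difference, knockout-labelled minus control (y axis), against the mean of both arrays (x axis) for the 12841 genes above the floor (grey), with the 8 measured members as circles and the 8 chemokine targets above the floor as squares. All members lie between the dotted 2-fold lines, and 7 of the chemokines lie below them; for CCL20 the knockout-labelled value is under the floor, so its position is not a measured difference.

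The chemokine genes, also known NF-kB targets, had far larger differences in the opposite direction to ICAM1. Of 8 above the floor 7 were at least 2-fold lower on the knockout-labelled array, against 3.79% of all genes, with a median of -3.80. The chemokine list was chosen with earlier results of these data known, so this count is a description and no test. CXCL8 stood at 5.87 on the knockout-labelled array, against 9.73 on the control array, a difference of -3.86. CXCL1 had 6.32 and 10.28 in the same order, a difference of -3.96, and ICAM1, whose upstream window holds the same short motif, differed by 0.98. CXCL5 differed by -4.68, CXCL2 by -3.74 (-1.28 without probe sets marked as matching more than 1 transcript) and CXCL3 by -3.48, and CCL20 was at least 5.43-fold lower, set against the floor. CXCL10 differed by -1.10 and CXCL16 by 0.11. With 64 linear units added CXCL10 was within 2-fold at -0.53, and after spike-in scaling it stood at 0.0906. Once probe sets marked as matching more than 1 transcript were dropped, CXCL5 and CXCL8 had no value above the floor. The chemokine median was then -2.38, with 5 genes at least 2-fold lower. Genes whose windows hold the short motif therefore differed in both directions in the values as deposited, and no test of this contrast was possible. CXCL8 and ICAM1 held the short motif alone, whereas CXCL1, CXCL2, CXCL3, CXCL5 and CXCL10 held the decamer as well. The members NFKB1, at -0.62, and NFKBIA, at 0.23, also held both, and CCL20 held the decamer alone. CXCL6 held both and was under the floor on both arrays.

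The remaining Rel and IkB genes included some of the larger differences of the pathway. REL, a subunit best known in lymphocytes and not among the listed members, had 6.66 on the knockout-labelled array, against 7.67 on the control array. Its difference was -1.01, or 2.01-fold lower, and its 4 probe sets above the floor all lay below 0, between -1.01 and -0.34. NFKBIZ, a nuclear IkB that acts as a co-activator for a subset of NF-kB targets, had 6.81 on the knockout-labelled array, against 7.89 on the control array. Its difference was -1.08, and its second probe set differed by -1.09. After spike-in scaling REL stood at 0.18 and NFKBIZ at 0.11, close to 0. The classical inhibitors stood the other way, NFKBIE at 0.41 and NFKBIB at 0.49, although 1 of the NFKBIB probe sets differed by -0.18. Of the 5 genes in this list 2 were at least 2-fold lower and none higher, with a median of 0.01, against 3.79% and 1.05% of all genes. REL was at the edge of that mark: its difference was -0.97 with each array centred on its median and -0.34 in its second brightest probe set, and with 64 linear units added neither gene passed.

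Among ligands and receptors the differences went both ways. Of 10 measured ligands, TNF, IL1A and 4 others were under the floor on both arrays. LTB, which with LTA forms a ligand of the non-canonical receptor LTBR, had 6.67 on the knockout-labelled array, against 8.66 on the control array, a difference of -1.99. It rests on 1 probe set above the floor, and with its dimmer one averaged in, LTB was within 2-fold. IL18, an epithelial cytokine of the interleukin-1 family, was higher at 7.92 on the knockout-labelled array, against 6.88 on the control array, a difference of 1.04. TNFSF13B, the B-cell survival factor that signals through the non-canonical route, stood at 5.84 on the knockout-labelled array, against 4.48 on the control array, which is under the floor. With the floor in place of that value it was at least 2.38-fold higher. Its second probe set, also above the floor, differed by 0.71, within 2-fold. IL1B differed by 0.14.

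Of 11 receptors above the floor, the values of 3 (TLR2, IL1R1 and TLR3) were at least 2-fold lower and none higher, with a median of 0.02. Over all genes 3.79% were at least 2-fold lower and 1.05% higher. With values under the floor raised to it, the count past 2-fold was 2, with the probe sets averaged or a floor at the 75th percentile it was 1, and with the second brightest probe set or 64 linear units added it was 0. TNFRSF1A, the main receptor of tumour necrosis factor, was higher within 2-fold, with 8.84 on the knockout-labelled array, against 8.01 on the control array, a difference of 0.82. TLR2, which senses bacterial lipoproteins, was lower at 6.33 on the knockout-labelled array, against 7.47 on the control array, a difference of -1.14. IL1R1, the interleukin-1 receptor, was under the floor at 4.44 on the knockout-labelled array, against 6.05 on the control array, which is at least 2.74-fold lower with the floor in place of the dim value. For TLR3, a sensor of double-stranded RNA, the same bound is a level at least 1.09-fold lower, so its 2-fold difference rests on a value of 2.85 under the floor. MYD88, the adaptor shared by IL1R1 and TLR2, stood at 8.35 on the knockout-labelled array, against 9.10 on the control array, a difference of -0.74. After spike-in scaling TLR2 stood at 0.0505 and MYD88 at 0.44. Other genes of the interleukin-1 route, named after their values were seen, stood on both sides of 0 as deposited. IL1RAP stood at 0.32, with a second probe set at -0.18, IRAK2 at 0.35 and IRAK1 at 0.12. TRAF6 stood at -0.09 and MAP3K7 at -0.19.

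The kinases, adaptors and brakes of the pathway were within 2-fold in their brightest probe sets. Over all genes 4.84% passed 2-fold in either direction, so for lists of this size a count of 0 is near that background. Of 11 IkB kinases and upstream kinases 6 were above 0, with a median of 0.07, and the catalytic subunit IKBKB at -0.43 and the scaffold IKBKG at 0.49 lay on opposite sides. MAP3K8 differed by -0.46 and TAB3 by 0.45. Of 16 measured adaptors and ubiquitin ligases 10 were above 0, with a median of 0.12, and RIPK2 at 0.58, TRAF5 at -0.49 and CARD10 at -0.75 differed most beside MYD88. The CARD10 probe sets differed in direction. MALT1, a paracaspase named here after its values were seen, stood at -0.38, but another of its probe sets above the floor stood at -1.25. Of 10 negative regulators 8 were above 0, with a median of 0.17. The deubiquitinase CYLD at 0.50, TAX1BP1 at 0.43 and TNIP1 at 0.30 were the highest, with TNIP2 at -0.26. That median was 0.03 with the probe sets averaged and -0.03 with the second brightest probe set. Averaged over its probe sets, TNIP1 stood at -0.06 and N4BP1, another of the 8, at -0.26. Over all genes above the floor 52.9% were above 0, the share to set beside the count of each of these lists.

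Other NF-kB targets outside the chemokines also stayed within 2-fold, all 17 above the floor, with a median of 0.06. With 4.84% of all genes past 2-fold, this too is near the background. GADD45B, a stress-response gene, was the highest at 0.79, with 8.91 on the knockout-labelled array, against 8.12 on the control array, and PLAU, the urokinase, differed by 0.54. LCN2, the iron-scavenging lipocalin, was the lowest at -0.87, with 5.53 on the knockout-labelled array, against 6.39 on the control array, and the surface protein CD83 differed by -0.75. The other 7 measured targets, among them IL6, VCAM1 and PTGS2, were under the floor on both arrays. Over the 7 lists other than chemokines, 2 of 74 genes above the floor were at least 2-fold higher and 6 lower as deposited. Over all genes the shares were 1.05% and 3.79%. Of the 6 lower genes, TLR3 has a bound of only 1.09-fold.

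**Figure D4:**
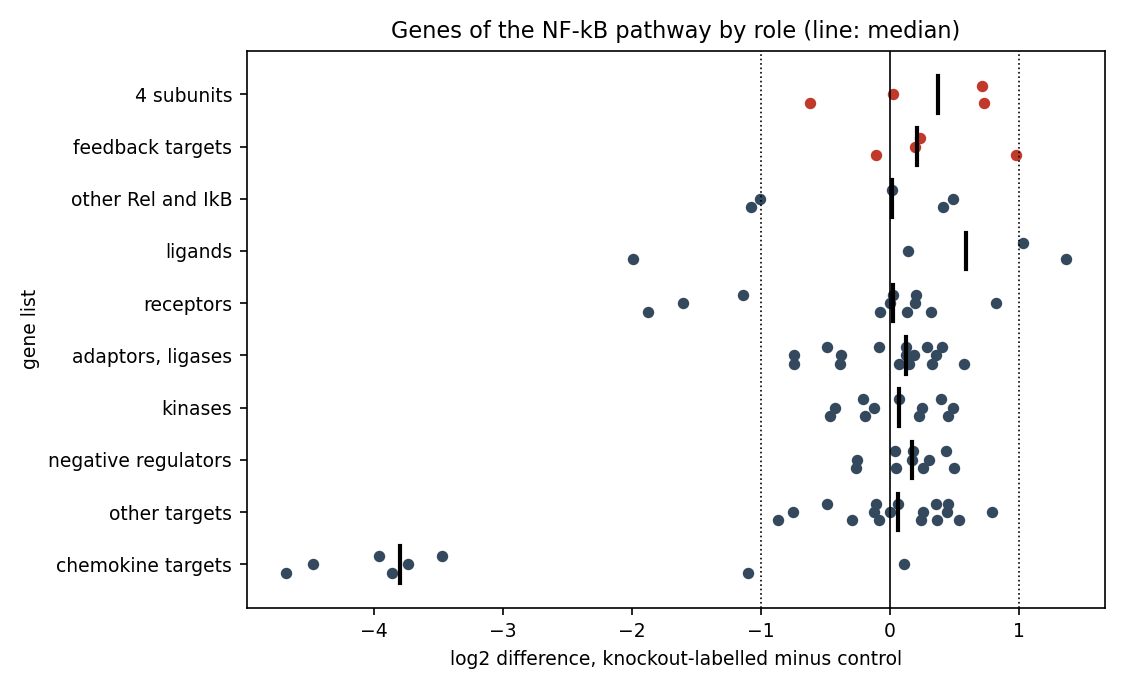
Log2 difference, knockout-labelled minus control (x axis), of each gene above the floor in the lists of the NF-kB pathway (y axis), with the list median as a black line and 2-fold as dotted lines. The subunits and feedback targets lie between the dotted lines. The chemokine targets have the lowest median, -3.80, although CXCL10 and CXCL16 lie above LTB, TLR3 and IL1R1 of other lists. IL1R1, TLR3, CCL20 and TNFSF13B are under the floor on 1 array.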

How the data were processed

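Gene expression was measured on 1 Affymetrix array of each culture. The authors deposited log2 expression values, and the tool that the submitters' processing notes name for them is RMA, without a version. Its steps are background subtraction, quantile normalisation between arrays and a log2 summary per probe set, which remove any difference in total RNA and compress dim probe sets. Of 54675 probe sets, 62 were controls, 41091 had 1 gene symbol, 1801 had several and 11721 had none in the platform annotation used. Only the first kind gave gene values, and no symbol differed from RefSeq (GRCh38.p14).

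Python 3.11.15 with pandas 2.3.3 was used. The brightest probe set represented a gene, and the spread was computed in 10 intensity bins, from 0.255 to 0.437. A count of genes uses a difference of at least 2-fold. No test was made, with 1 array per group. The named genes were all members, ARID3B, and in each other list up to 4 genes of largest difference plus every gene past 2-fold; values of 1 array under the floor give a bound against it. The procedure was tested on simulated data with planted differences, placed in bright genes and all larger than that of any member as deposited. The simulation did not cover differences as small as those of the members. Members, lists and motifs were chosen with earlier results of these data known. Promoter sequences are from RefSeq. Alternatives were other probe set choices, floors, scalings, 64 linear units added to both arrays, and thresholds of 1.5-fold and 3-fold.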

Additional observations from a re-analysis of the deposited data

How the results depend on the processing

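No alternative other than spike-in scaling turned the sign of ICAM1, RELA, NFKB2, NFKB1, NFKBIA, TNFAIP3 or SOD2, among the alternatives in which each was measured. ICAM1 ranged from 0.84 to 1.24, RELA from 0.54 to 0.77, NFKB2 from 0.39 to 0.76 and NFKB1 from -0.71 to -0.50. Scaling on the poly-A spike-ins raised every difference by 1.19, so that the subunit median was 1.56, the target median 1.40 and 7 members were at least 2-fold higher, and of the named genes past 2-fold it turned REL to 0.18, NFKBIZ to 0.11, TLR2 to 0.0505 and CXCL10 to 0.0906. Named genes within 2-fold below 0 also came to stand above 0, NFKB1 and SOD2 as well as LCN2 (0.32), CD83, CARD10 and MYD88 (0.44 each), TRAF5 (0.70), MAP3K8 (0.72), IKBKB (0.76) and TNIP2 (0.92). By construction this shift is the same for every gene. With the second brightest probe set the target median was 0.77, over ICAM1 and TNFAIP3 alone among the targets above the floor, and 1 member, ICAM1, was at least 2-fold higher. Centring each array on its median also put 1 member at that mark. At 1.5-fold 3 members were higher and 1 lower. When probe sets marked as matching more than 1 transcript were dropped, RELA, ICAM1 and TNFAIP3 could not be measured, and NFKBIA was under the floor; the target median was then -0.11, from SOD2 alone. Over all genes, 2-fold counts of 135 higher and 487 lower became 83 higher with the mean of the probe sets, 264 lower with the second brightest, 290 lower with the higher floor, 46 higher and 117 lower with 64 linear units added, and 9137 higher and 44 lower with spike-in scaling. No paired analysis was possible because each group has 1 array. TLR3 differed by -1.87 as deposited and by -0.13 with values raised to the floor.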
